A study of Mus musculus with 26 samples.

Results

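Slits, Robos, DCC and the UNC5 proteins are the ligands and receptors of a pair of guidance systems that steer axons and migrating neurons. SLIT proteins are secreted and bind ROBO receptors, usually driving growth cones and cells away. Netrins bind DCC, which mediates attraction, and UNC5 receptors, which mediate repulsion, and UNC5 proteins also bind the FLRT adhesion proteins of cortical neurons. In the embryonic cortex these genes act while neurons leave the germinal zones, become bipolar, climb to the cortical plate and send axons to the other hemisphere or to subcortical targets.

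The 10 genes Unc5a, Unc5b, Unc5c, Unc5d, Dcc, Robo1, Robo2, Slit1, Slit2 and Slit3 were taken by symbol from the 30406 genes listed for all 8 libraries of cortical nuclei, and all 10 were present. The nuclei came from the prospective somatosensory cortex of male C57Bl/6N embryos at E15.5. Dams had received at E12.5 either saline or poly(I:C), an artificial RNA duplex that causes maternal immune activation (MIA). Embryos were wild type or null for Csf1r, the receptor that microglia need to survive, which gave 4 groups (wild-type saline, wild-type MIA, Csf1r-null saline and Csf1r-null MIA) of 2 libraries each. The null allele acts in the whole embryo, and a library holds 1 embryo or a pool of 2. The study used wild-type littermates as controls and 4 pregnant dams in total, so treatment went to whole litters. Which dam gave which library was not given in the sources used here. Libraries may therefore not be independent, and the spread between them may include litter and technical variation.

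Barcodes with at least 500 UMIs (unique molecular identifiers, 1 per captured RNA molecule) and 200 genes gave 43456 nuclei, of which 1917 were removed as likely doublets and 41539 stayed. Libraries had between 9897721 and 17605575 UMIs and a median of 1469 to 2954 UMIs per nucleus. A total of 236 barcodes occurred in more than 1 library, at most 14 for any pair of libraries. Libraries carried the replicate numbers 1 and 2, and the replicate 2 libraries were also made with another version of the counting software and a longer gene list. Before the filters used here, the deposited lists held 6794880 barcodes in each replicate 1 library and 4653 to 6198 in the replicate 2 libraries. In the microglial genes, 2 libraries went against their labels. Csf1r had 0 UMIs in the library with the label wild-type MIA replicate 2 and 10 in that with the label Csf1r-null saline replicate 2, against 11 to 23 in the other wild-type libraries and 1 to 4 in the other null libraries. Results are therefore given for the libraries as labelled, and with both of these left out where that turned the direction or moved a leading value by over 1.5 times. Wild-type saline replicate 1 also stood apart. It held 719 of the 852 nuclei of an Ebf1-high cluster that stayed unnamed and 304 of the 1227 nuclei classed as dividing intermediate progenitors. The Ebf1-high cluster made up 15.9% of the nuclei of this library, against 0.173% to 0.793% in the others.

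Nuclei were clustered without the 10 genes and without the other guidance genes, and a cluster was named where it scored high on a marker list and held a marker of that list among its 10 leading genes, so a name means nuclei like that cell type. Clusters led by proliferation markers were split into dividing AP and dividing IP by which of these lists scored higher, with no AP or IP marker among their leading genes. In dividing IP the 7 IP markers summed to 2136 CPM in wild-type saline replicate 1, against 3258 to 4073 CPM in the other libraries. In AP that library had 8637 CPM of summed AP markers, against 5353 to 6447 CPM in the others. Its interneuron markers Dlx1 and Dlx2 in AP were at 37.55 and 44.6 CPM, against at most 6.52 and 3.81 CPM. In dividing AP its Dlx1 was at 41.25 CPM, against at most 4.83 CPM. Their part in the values of these classes was not tested. A total of 10 classes had at least 20 nuclei in every library and were tested. They were apical progenitors (AP, the stem cells of the ventricular zone), dividing AP, intermediate progenitors (IP, their neurogenic daughters), dividing IP, migrating neurons, callosal projection neurons (CPN), subcerebral projection neurons (SCPN), corticothalamic projection neurons (CThPN), interneurons of medial ganglionic eminence (MGE) type, and a cluster led by Cdh10 and Kcnip4 that also stayed unnamed. This Cdh10-high cluster scored highest on the CThPN list and next on the subplate list, with no marker of either among its 10 leading genes. Its 6 CThPN markers summed to 3654 to 4343 CPM over the libraries, against 3323 to 3900 CPM in the CThPN class, and its 5 subplate markers to 228 to 446.5 CPM, against 67.4 to 105.5 CPM. The Ebf1-high cluster was led by Ebf1, Adarb2, Isl1, Dlx6os1 and Six3. It scored highest on the list for interneurons of caudal ganglionic eminence type (2.18) and next on that for interneurons (2.11). Neither list was used to name clusters. Levels are UMIs of the gene per 1000000 UMIs of the class in a library (CPM), and means and ranges are over the 8 libraries. CPM here depends on where in the transcript priming occurred as well as on its abundance, so each gene is compared only with itself across classes. Order among classes is a description without a test. Without the 2 libraries that went against their labels, the mean of each gene in its highest class moved by less than 1 SD of the libraries, and 8 of the 10 kept the same highest class.

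**Figure D1:**
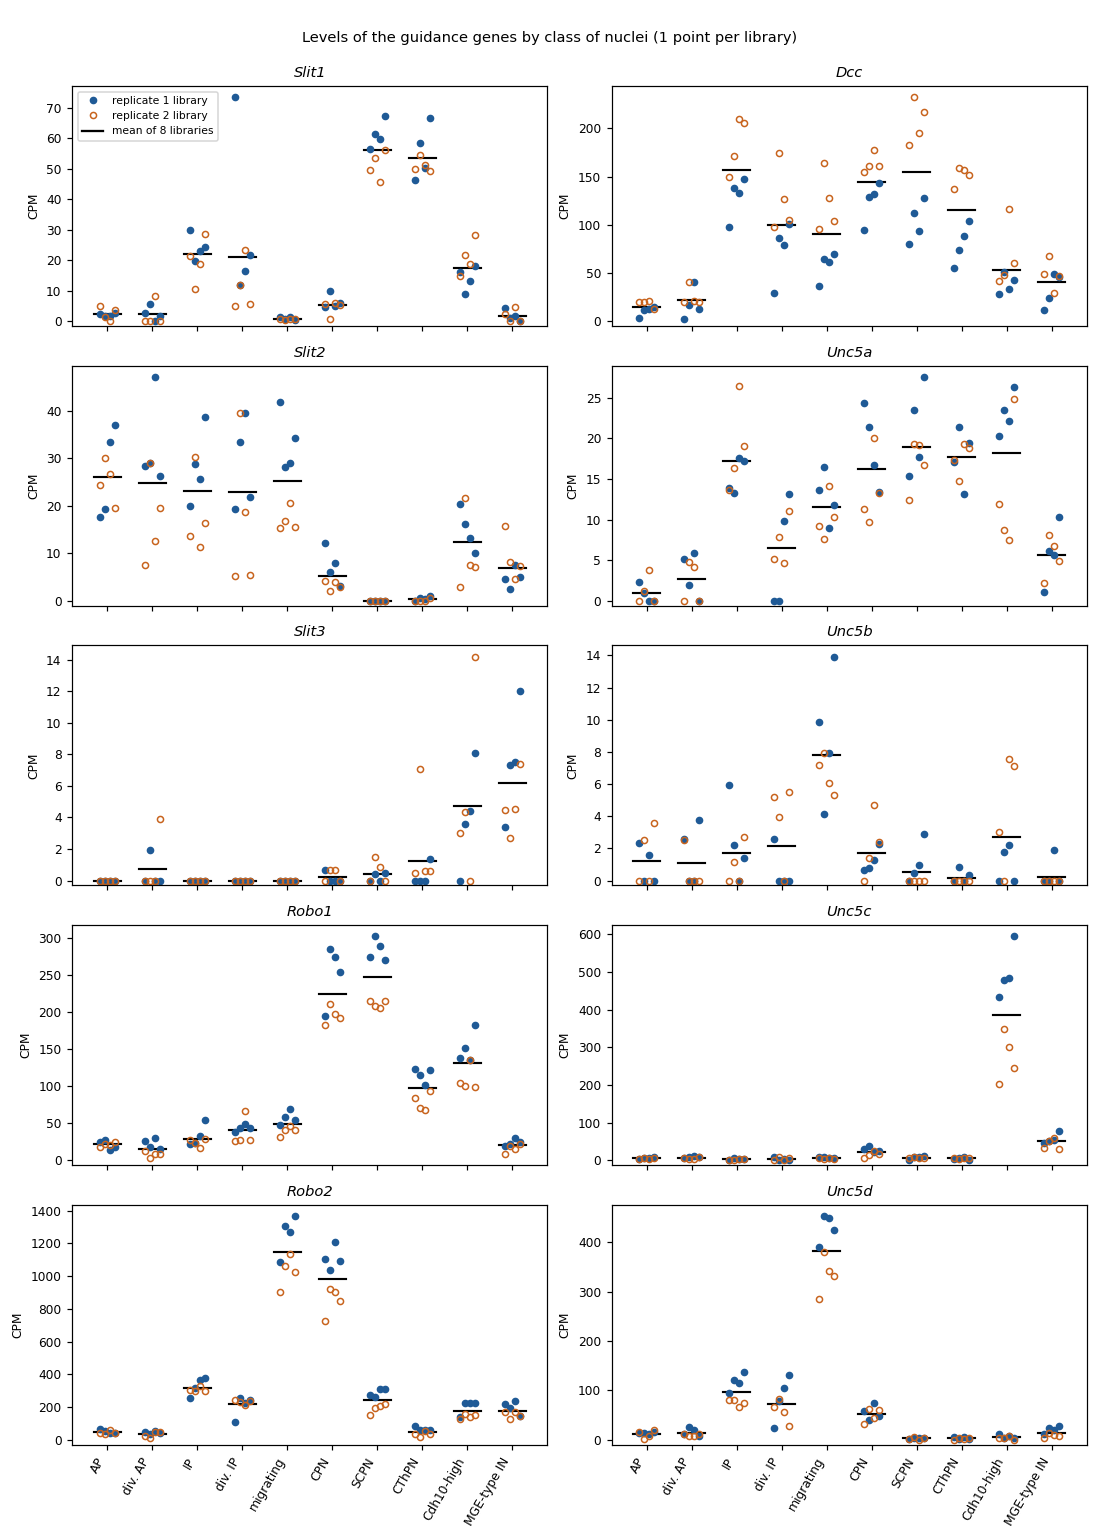
Levels in CPM (y axes, linear and different for each gene) of the 10 genes in the 10 tested classes of nuclei (x axis), with 1 point per library, filled for replicate 1 and open for replicate 2, and a line at the mean of 8 libraries. Unc5d stands highest in migrating neurons, Unc5c in the Cdh10-high cluster, Robo1 in SCPN and CPN, Robo2 in migrating neurons and CPN, and Slit1 in SCPN and CThPN.

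Among the ligands, Slit1 and Slit2 were highest in different classes, while IP, dividing IP and the Cdh10-high cluster held both. In the Cdh10-high cluster Slit1 was at 17.6 CPM (9.04 to 28.4). Slit1 (chromosome 19 from 41600257 to 41743665, minus strand, GRCm38) was highest, among the tested classes, in the deep-layer projection neurons, with a mean of 56.3 CPM in SCPN (45.8 to 67.2) and 53.4 CPM in CThPN (46.5 to 66.8). The ranges of these classes overlapped each other, and neither overlapped IP, the next class, at 22.1 CPM (10.5 to 29.9). In CPN, whose axons cross in the corpus callosum, Slit1 was at 5.46 CPM (0.692 to 10.1), and in migrating neurons at 0.833 CPM (0.345 to 1.41). Dividing IP had a mean of 21.2 CPM, but 73.5 CPM came from wild-type saline replicate 1 and the other 7 libraries lay between 5.17 and 23.5 CPM. In that class the interneuron markers Gad1, Gad2, Dlx1, Dlx2, Dlx5, Dlx6os1 and Slc32a1 were each highest in wild-type saline replicate 1. There Dlx1 was at 1098 CPM, against 0 to 84.8 CPM in the other libraries, Gad2 was at 214 CPM, against 0 to 14.1 CPM, and Gad1 was at 43.8 CPM, against 0 in each of the others. Their part in the Slit1 value was not tested.

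Slit2 (chromosome 5 from 47983138 to 48307733, plus strand) was carried by progenitors and young neurons. Its mean was 26.0 CPM in AP (17.6 to 37.1), 25.2 CPM in migrating neurons (15.4 to 41.8), 24.9 CPM in dividing AP, 23.1 CPM in IP and 22.9 CPM in dividing IP, and the ranges of neighbouring classes in this order overlapped. The Cdh10-high cluster had 12.4 CPM (3.0 to 21.8). Slit2 was lower in CPN, at 5.33 CPM (2.08 to 12.2), and in CThPN, at 0.323 CPM (0 to 1.01). No Slit2 UMI was found among the 4850 SCPN nuclei, which allows at most 0.241 CPM, a limit of 3 UMIs that covers counting error only. Among the 10 tested classes, SCPN and CThPN had the highest mean of Slit1 and the lowest of Slit2. In the Ebf1-high cluster, not tested, Slit1 had 40 UMIs, of which 25 were in wild-type saline replicate 1, at 16.5 CPM. The other libraries, with 10 to 45 nuclei and 0 to 5 UMIs each, ran from 0 to 169 CPM.

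Slit3 (chromosome 11 from 35121224 to 35708507, plus strand) was barely detected in cortical classes. It had no UMI in AP, IP, dividing IP and migrating neurons, which in migrating neurons allows at most 0.120 CPM. Its mean was 6.17 CPM in MGE-type interneurons (2.71 to 12), from 28 UMIs in 2243 nuclei. In the Ebf1-high cluster it had 117 UMIs, all in wild-type saline replicate 1, at 77.3 CPM, and the other 7 libraries had 10 to 45 nuclei in this cluster and no Slit3 UMI.

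Robo1 and Robo2, the SLIT receptors, are neighbours on chromosome 16, with Robo1 from 72308306 to 73046095 on the plus strand and Robo2 from 73891839 to 74411825 on the minus strand, 845.7 kb apart. Robo2 had a mean of 1145 CPM in migrating neurons (902 to 1368) and 980 CPM in CPN (725 to 1206), and the ranges of these classes overlapped. The next class, IP, was at 318 CPM (255 to 380), below every library of both. SCPN had 242 CPM (152 to 312), MGE-type interneurons 177 CPM (127 to 235) and the Cdh10-high cluster 175 CPM (129 to 227). CThPN, at 51.2 CPM (19.9 to 87.5), AP, at 48.8 CPM (33.8 to 69.2), and dividing AP, at 38.8 CPM (9.65 to 56.0), lay below these without overlap between the Cdh10-high cluster and CThPN.

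Robo1 had a different order of classes. In migrating neurons it stood at 48.6 CPM (31.8 to 69.2), against 224 CPM in CPN (182 to 284) and 248 CPM in SCPN (205 to 302), whose ranges overlapped. The Cdh10-high cluster followed at 131 CPM (99.3 to 182) and CThPN at 96.9 CPM (67.5 to 123). IP had 28.5 CPM (17.0 to 54.5), AP 21.3 CPM (14.3 to 27.7) and MGE-type interneurons 20.2 CPM (9.00 to 30.1). SCPN and CPN therefore shared the highest Robo1 levels but differed in Robo2, at 242 and 980 CPM, with no overlap between their libraries.

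Dcc (chromosome 18 from 71253634 to 72351069, minus strand), the netrin receptor, was broad. Means were 157 CPM in IP (97.5 to 210), 155 CPM in SCPN (80.2 to 232), 144 CPM in CPN (94.2 to 177) and 116 CPM in CThPN (55.7 to 159), with overlapping ranges between neighbours in the order. Dividing IP followed at 100.0 CPM (29.7 to 174) and migrating neurons at 90.6 CPM (36.5 to 164). AP had 14.5 CPM (3.52 to 20.9) and dividing AP 22.0 CPM (2.58 to 41.3), so every AP library lay below every IP library. MGE-type interneurons had 40.6 CPM (11.3 to 67.8).

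The UNC5 receptors differed in their classes. Unc5d (chromosome 8 from 28646717 to 29219636, minus strand) had a mean of 382 CPM in migrating neurons (285 to 453). IP, at 96.4 CPM (66.2 to 138), did not overlap this range, and dividing IP was at 71.7 CPM (23.2 to 131). CPN had 52.6 CPM (32.0 to 74.7). It was at 3.22 CPM in SCPN (0.832 to 5.21) and at 3.101 CPM in CThPN (0 to 6.61), below every CPN library.

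Unc5c (chromosome 3 from 141465216 to 141834924, plus strand) was concentrated in the Cdh10-high cluster, at 386 CPM (204 to 594) in 729 nuclei. MGE-type interneurons, the next class, had 50.1 CPM (29.6 to 77.1) and CPN 21.9 CPM (7.24 to 37.6). In the remaining 7 tested classes its mean was between 3.01 CPM in IP and 6.86 CPM in SCPN. Unc5a (chromosome 13 from 54949411 to 55006018, plus strand) lay between 16.3 CPM in CPN and 19.0 CPM in SCPN for CPN, IP, CThPN, the Cdh10-high cluster and SCPN, with overlapping ranges. It was at 11.5 CPM in migrating neurons (7.58 to 16.5), 5.66 CPM in MGE-type interneurons (1.13 to 10.3) and 1.04 CPM in AP (0 to 3.81).

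Unc5b (chromosome 10 from 60762593 to 60831581, minus strand), known in blood vessels for its role in endothelial branching, was at 7.79 CPM in migrating neurons (4.12 to 13.9) and under 3 CPM in the other tested classes. It was higher in small classes that were not tested. In the 58 nuclei like pericytes and endothelium it had 49 UMIs and a mean of 408 CPM (98.5 to 766), and in the 137 nuclei like Cajal-Retzius cells, the Reln-secreting neurons of the marginal zone, 52 UMIs and a mean of 89.8 CPM (21.1 to 149). Among the 31 nuclei like microglia, Dcc, Robo1 and Unc5d had 1 UMI each and the other 7 genes none, which allows at most 55.1 CPM for each of the latter.

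The class of migrating neurons joined 3 clusters that differed in these genes. The first, led by Cxcl12, Neurod1 and Sstr2 and with IP as its second marker list, had 504 CPM of Unc5d (408 to 621), 141 CPM of Dcc (66.5 to 235) and 22.2 CPM of Robo1 (13.5 to 34.7). A cluster led by Ndst3, Nrp1 and Sema6d had 431 CPM of Unc5d (323 to 511), 71.7 CPM of Dcc (19.6 to 141) and the highest Robo2, 1426 CPM (1196 to 1757). The cluster led by Pdzrn3, Pou3f1 and Cldn3 had 204 CPM of Unc5d (168 to 226), below every library of both others, with 50.1 CPM of Dcc (17.5 to 80.1) and 75.8 CPM of Robo1 (39.5 to 99.6). Robo2 in the first and last of these, at 1029 CPM (850 to 1185) and 1041 CPM (825 to 1365), overlapped. The clusters led by Ndst3 and by Pdzrn3 had CPN as their second marker list, and the CPN class had migrating neurons as its second. The CPN markers summed to 2170 to 3210 CPM in migrating neurons and 2066 to 3618 CPM in CPN. The migrating neuron markers summed to 3002 to 4212 CPM and 2630 to 3639 CPM, so neither list separated these classes.

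The genes whose mean levels over the 10 classes were most like those of each member were named by the Pearson correlation of log2(CPM + 1) among 11622 genes. These are descriptions over classes that share libraries and depth. Unc5d was nearest to Ccdc88c (r = 0.945), Rnd2 (0.938) and Slc17a6 (0.929), a vesicular glutamate transporter. Robo2 was nearest to the semaphorin co-receptor Plxna4 (0.947), Acd (0.945) and Plxna4os2 (0.944), an antisense neighbour of Plxna4 whose reads may not be separable from it. Robo1 was nearest to Id2 (0.964), Prdx5 (0.933) and 4921534H16Rik (0.930). Dcc was nearest to Prmt8 (0.928), Cplx2 (0.925) and the neuronal transcription factor Neurod6 (0.913). Slit1 was nearest to Rprm (0.898), Cetn3 (0.855) and Kcnk12 (0.850), and Slit2 to Akr1b3 (0.984), Bcl7c (0.954) and Mmp15 (0.951). Unc5c was nearest to Trank1 (0.956), Lor (0.953) and Stum (0.936), and Unc5a to Nudt8 (0.973) and Arfgef3 (0.955). Unc5b and Slit3 did not reach the 10 CPM needed in any tested class.

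Several of the 10 genes split by replicate number across all 4 groups. Dcc in SCPN had 80.2, 112, 93.3 and 128 CPM in the replicate 1 libraries of wild-type saline, wild-type MIA, Csf1r-null saline and Csf1r-null MIA, and 183, 232, 195 and 217 CPM in the replicate 2 libraries in the same order. The 2 sets did not overlap, and the mean of replicate 2 was 2.00 times that of replicate 1. In CThPN the replicate 1 libraries had 55.7 to 103 CPM and the replicate 2 libraries 137 to 159 CPM, and in migrating neurons 36.5 to 69.6 CPM and 96.0 to 164 CPM. The mean of Dcc was higher in replicate 2 in 10 of 10 classes.

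All other tested members leaned the other way, including Unc5a in 4 of 5 classes and Unc5b in its 1 class. Robo1 in SCPN had 271 to 302 CPM in replicate 1 and 205 to 215 CPM in replicate 2, and Robo2 in CPN 1037 to 1206 CPM and 725 to 919 CPM. Unc5d in migrating neurons had 390 to 453 CPM and 285 to 380 CPM, Slit2 there 28.3 to 41.8 CPM and 15.4 to 20.6 CPM, and Unc5c in the Cdh10-high cluster 435 to 594 CPM and 204 to 348 CPM. Of the 58 gene and class pairs of the members that passed the filter on low counts, 5 (8.62%), all Dcc, had every replicate 2 library above every replicate 1 library, and 12 (20.7%) had every replicate 2 library below. Over all 91038 tested pairs of genes and classes these shares were 3.35% and 8.7%. Replicate number, software version, gene list and the deposited barcode list cannot be told apart here, and their part in these differences was not tested.

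**Figure D2:**
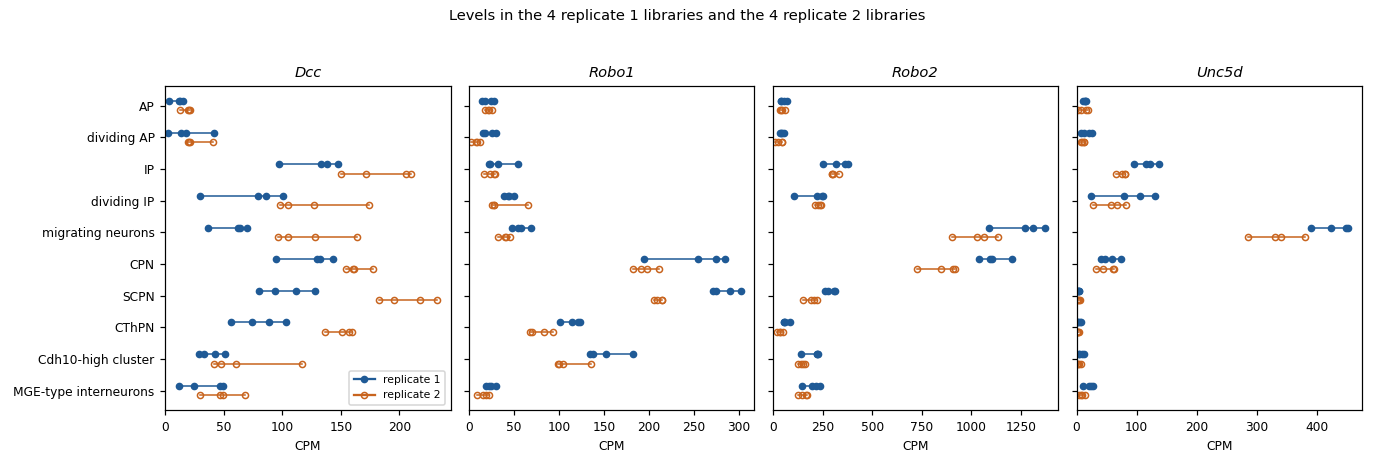
Levels in CPM (x axes) of Dcc, Robo1, Robo2 and Unc5d in each tested class (y axis), with 1 point per library and a line over the range of the 4 libraries of replicate 1 (filled) and of replicate 2 (open). Dcc in SCPN lies at 80.2 to 128 CPM in replicate 1 and 183 to 232 CPM in replicate 2, while Robo1 there lies at 271 to 302 and 205 to 215 CPM.

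To ask whether MIA changed these genes and whether microglia mattered for it, the libraries were compared by treatment within each genotype, by the difference of the responses between genotypes, and by genotype within each treatment. Of 100 pairs of members and classes, 58 had enough counts to be tested. Dcc, Robo1 and Robo2 were tested in 10 classes each, Unc5d in 7, Unc5c in 6, Unc5a and Slit2 in 5 each, Slit1 in 4 and Unc5b in 1, and Slit3 in none. With edgeR's quasi-likelihood test and Benjamini-Hochberg adjustment at 0.05, 0 of the 58 pairs were called in each of the 5 comparisons. The smallest adjusted p over the members was 0.587 for wild-type MIA against saline, 0.999 for the same in Csf1r-null, 0.977 for the difference of the responses, 0.614 for genotype after saline and close to 1 for genotype after MIA. Over all genes 0 of 91038 pairs were called in each comparison, a background of 0%.

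At an unadjusted p under 0.05, the members had 1, 0, 1, 0 and 1 of 58 pairs in these comparisons, in the order given, and over all genes the shares were 5.85%, 1.39%, 2.82%, 5.47% and 1.36%. In a model with a replicate block (a term for the replicate number), 0 of the 58 pairs were called in any comparison, while the calls over all genes rose to 0.572% of pairs for wild-type MIA, 0% for Csf1r-null MIA, 0.00549% for the difference, 0.31% for genotype after saline and 0.00659% for genotype after MIA. The block raised the members' counts at an unadjusted p under 0.05 to 5, 3, 5, 8 and 2 of 58 pairs, and those over all genes to 10.2%, 2.74%, 5.5%, 9.46% and 2.78%. All 8 pairs for genotype after saline were higher in Csf1r-null, and 6 of them were Dcc. DESeq2 called 0 member pairs in each comparison, against 0.056%, 0%, 0%, 0.0352% and 0% of all pairs, and had 0 at an unadjusted p under 0.05, against 2.57%, 0.181%, 0.714%, 2.1% and 0.165%. Without a filter on low counts 95 pairs could be fitted and 0 were called, against 0.146%, 0.00522%, 0.0168%, 0.0987% and 0.0209% of 172275 pairs over all genes.

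**Figure D3:**
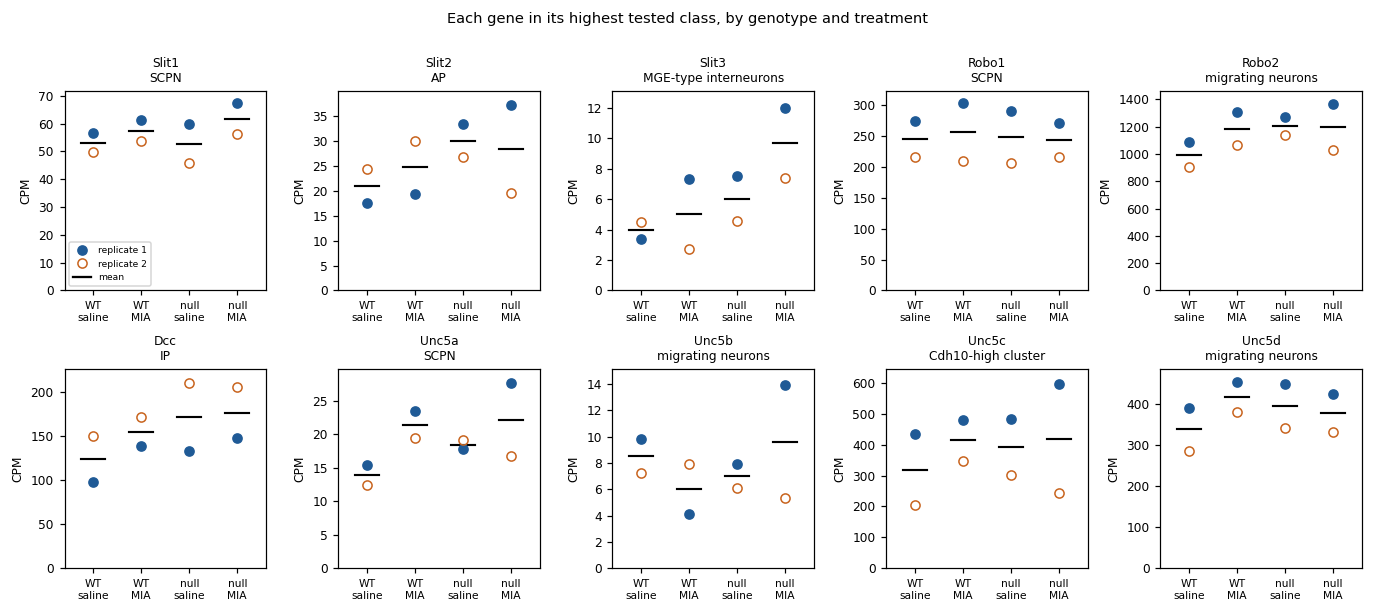
Levels in CPM (y axes, from 0) of each gene in the tested class where it was highest, in the 4 groups (x axes, null for Csf1r-null), with a point for replicate 1 (filled) and replicate 2 (open) and a line at their mean. Unc5d in migrating neurons lies between 285 and 453 CPM in all 8 libraries, and Unc5a in SCPN at 12.4 and 15.3 CPM in wild-type saline and 19.4 and 23.5 CPM in wild-type MIA.

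Unc5d in migrating neurons had 390 and 285 CPM in wild-type saline (replicates 1 and 2), 453 and 380 CPM in wild-type MIA, 448 and 341 CPM in Csf1r-null saline, and 424 and 331 CPM in Csf1r-null MIA. Within each replicate number the wild-type value was higher after MIA, and wild-type saline was the lowest of the 4 groups. The wild-type MIA value of replicate 2 came from a library that went against its label. The wild-type groups overlapped, as replicate 1 after saline lay above replicate 2 after MIA. The log2 fold change of MIA over saline was 0.25 ± 0.20 (SE) in wild type (edgeR, adjusted p 0.789) and -0.07 ± 0.20 (SE) in Csf1r-null (adjusted p 1). SE is a standard error worked back from the fold change and the F statistic of the test.

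Robo2 in the same class had 1086 and 902 CPM in wild-type saline, 1308 and 1062 CPM in wild-type MIA, 1271 and 1136 CPM in Csf1r-null saline, and 1368 and 1027 CPM in Csf1r-null MIA. Within each replicate number the wild-type value was higher after MIA, and wild-type saline was again the lowest of the 4 groups. The wild-type MIA value of replicate 2 came from the same library, and the groups overlapped. The log2 fold change of Robo2 was 0.19 ± 0.18 (SE) in wild type (edgeR, adjusted p 0.819) and -0.02 ± 0.18 (SE) in Csf1r-null (adjusted p 1). Unc5b there had 9.83 and 7.21 CPM in wild-type saline, 4.12 and 7.92 CPM in wild-type MIA, 7.90 and 6.07 CPM in Csf1r-null saline, and 13.9 and 5.32 CPM in Csf1r-null MIA, with log2 fold changes of -0.57 (SE 0.48, adjusted p 0.806) and 0.43 (SE 0.47, adjusted p 1). Without both libraries that went against their labels the wild-type value was -1.12, and without wild-type MIA replicate 1 it was -0.13.

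In SCPN, where 3 members were highest, Robo1 had 275 and 215 CPM in wild-type saline, 302 and 208 CPM in wild-type MIA, 290 and 205 CPM in Csf1r-null saline, and 271 and 215 CPM in Csf1r-null MIA. Each group spanned nearly the same interval, and the log2 fold change was 0.02 ± 0.22 (SE) in wild type (edgeR, adjusted p 1.00) and -0.04 ± 0.22 (SE) in Csf1r-null (adjusted p 1). Slit1 had 56.6 and 49.7, 61.3 and 53.6, 59.7 and 45.8, and 67.2 and 56.3 CPM in the 4 groups in that order, with log2 fold changes of 0.07 (SE 0.20, adjusted p 0.993) and 0.21 (SE 0.19, adjusted p 1).

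Unc5a, a receptor with neuronal expression throughout the brain, had 15.3 and 12.4 CPM in SCPN of wild-type saline. After MIA it had 23.5 and 19.4 CPM in wild type, so the wild-type groups did not overlap. The value of 19.4 CPM came from a library that went against its label. How many pairs over all genes separated in this way was not counted. In Csf1r-null, Unc5a had 17.8 and 19.1 CPM after saline and 27.6 and 16.8 CPM after MIA. The log2 fold change was 0.60 ± 0.33 (SE) in wild type (edgeR, adjusted p 0.940) and 0.28 ± 0.30 (SE) in Csf1r-null (adjusted p 1), and neither passed the test.

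Slit2 in AP had 17.6 and 24.4 CPM in wild-type saline, 19.4 and 30.02 CPM in wild-type MIA, 33.4 and 26.7 CPM in Csf1r-null saline, and 37.1 and 19.6 CPM in Csf1r-null MIA. Its log2 fold changes were 0.15 (SE 0.41) in wild type and -0.09 (SE 0.41) in Csf1r-null (edgeR, adjusted p 0.951 and 1), and the wild-type value was -0.17 without both libraries whose microglial genes went against their labels. Both wild-type saline libraries lay below both Csf1r-null saline libraries, of which the lower, at 26.7 CPM, went against its label. How many pairs over all genes separated in this way was not counted. The log2 difference of genotype after saline was 0.49 ± 0.42 (SE) (edgeR, adjusted p 0.836).

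Unc5c in the Cdh10-high cluster had 435 and 204 CPM in wild-type saline, 479 and 348 CPM in wild-type MIA, 484 and 301 CPM in Csf1r-null saline, and 594 and 245 CPM in Csf1r-null MIA. Within each replicate number the wild-type value was higher after MIA, and wild-type saline was the lowest of the 4 groups. The wild-type MIA value of replicate 2, 348 CPM, came from a library that went against its label. The distance between the replicates exceeded that between the groups. For Unc5c the log2 fold changes were 0.39 (SE 0.36, adjusted p 0.999) and 0.09 (SE 0.35, adjusted p 1) with edgeR. The latter was -0.19 without both libraries that went against their labels. Slit3, not tested, had 3.39 and 4.50 CPM in MGE-type interneurons of wild-type saline, 7.33 and 2.71 CPM after MIA, 7.52 and 4.53 CPM in Csf1r-null saline, and 12 and 7.41 CPM after MIA.

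**Figure D4:**
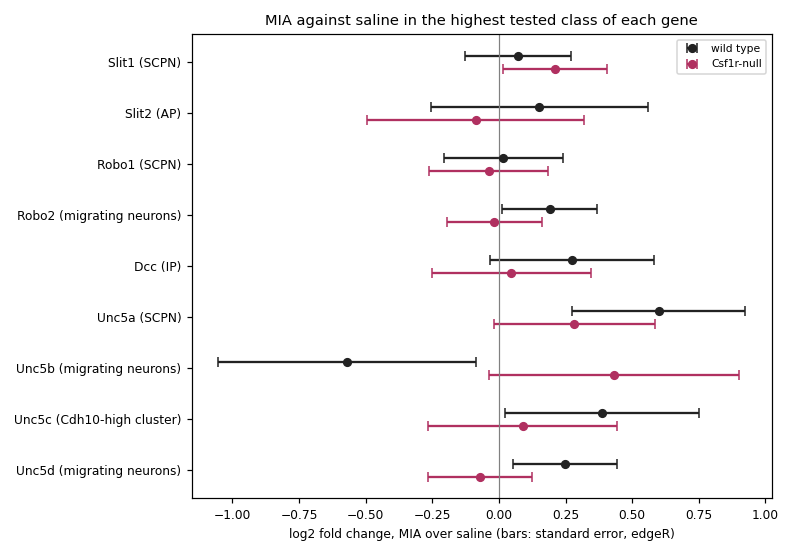
Log2 fold change of MIA over saline (x axis, bars 1 standard error, edgeR) for the 9 tested genes in the class where each was highest (y axis), in wild type (black) and Csf1r-null (red). The wild-type values run from -0.57 for Unc5b to 0.60 for Unc5a, and the Csf1r-null values from -0.09 for Slit2 to 0.43 for Unc5b.

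Dcc held the smallest p-value of the members. In dividing IP it had 29.7 and 98.3 CPM in wild-type saline, 86.0 and 174 CPM in wild-type MIA, 79.0 and 127 CPM in Csf1r-null saline, and 101 and 105 CPM in Csf1r-null MIA. Within each replicate number the wild-type value was higher after MIA, although both wild-type groups overlapped, and the low value was wild-type saline replicate 1, the library with 1098 CPM of the interneuron marker Dlx1 in this class. The log2 fold change of MIA over saline was 1.25 ± 0.50 (SE) in wild type (edgeR, unadjusted p 0.0243, adjusted p 0.587) and -0.01 ± 0.51 (SE) in Csf1r-null, the latter 0.35 without both libraries that went against their labels. With the replicate block the wild-type fold change was 1.19 (edgeR, unadjusted p 0.00184, adjusted p 0.123). Without the block it was 2.06 with an adjusted p of 0.0168 without wild-type saline replicate 2, the only alternative in which a member pair was called. In that fit wild-type saline was replicate 1 alone, assumed to vary like the libraries of the other groups. It was 0.27 (adjusted p 0.917) without wild-type saline replicate 1, 0.67 (adjusted p 0.970) when the library labelled wild-type MIA replicate 2 was left out, and 0.63 (adjusted p 0.999) without both libraries whose microglial genes went against their labels.

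Dcc in migrating neurons had 36.5 and 96.0 CPM in wild-type saline and 64.2 and 164 CPM in wild-type MIA, higher after MIA within each replicate number. The log2 fold change was 0.68 ± 0.59 (SE) (edgeR, adjusted p 0.808) and 0.70 with the replicate block (unadjusted p 0.0017, adjusted p 0.108). It was -0.17 without both libraries whose microglial genes went against their labels.

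Wild-type saline replicate 1 had the lowest Dcc of all 8 libraries in 10 of 10 classes, for example 11.3 CPM in MGE-type interneurons and 3.52 CPM in AP. The 3 comparisons that use wild-type saline libraries share this library. In them the Dcc log2 difference was above 0 in 10 of 10 classes for wild-type MIA over saline (median 0.44), in 10 of 10 for the wild-type response minus the Csf1r-null response (median 0.56), and in 10 of 10 for Csf1r-null over wild type after saline (median 0.51). Without wild-type saline replicate 1 these counts were 4, 4 and 3 of 10, with medians of -0.12, -0.105 and -0.11, and wild-type saline then consisted of replicate 2 alone, the replicate with the higher Dcc. Within replicate 1 the Dcc level was higher in wild-type MIA than in wild-type saline in 10 of 10 classes, and within replicate 2 also in 10 of 10. Csf1r-null saline was above wild-type saline in 10 of 10 classes within replicate 1 and in 9 of 10 within replicate 2. Each of these counts reads 1 pair of libraries in 10 classes, so the classes are not separate observations. Such counts were not made over all genes. Both counts within replicate 2 use a library that went against its label. Without both libraries whose microglial genes went against their labels the counts of the 3 comparisons were 5, 2 and 6 of 10, with medians of 0.02, -0.24 and 0.04. Wild-type MIA and Csf1r-null saline then consisted of replicate 1 alone, the replicate with the lower Dcc. Csf1r-null MIA over saline and genotype after MIA do not use wild-type saline libraries. There the Dcc difference was above 0 in 4 and 6 of 10 classes, with medians of -0.02 and 0.04. Csf1r-null MIA was above Csf1r-null saline in 8 of 10 classes within replicate 1 and in 2 of 10 within replicate 2. It was above wild-type MIA in 8 of 10 within replicate 1 and in 3 of 10 within replicate 2. These replicate 2 counts also use a library that went against its label. Without both such libraries the Dcc difference was above 0 in 8 and 9 of 10, with medians of 0.40 and 0.35. In IP, where its mean was highest, Dcc had 97.5 and 150 CPM in wild-type saline, 138 and 171 CPM in wild-type MIA, 133 and 210 CPM in Csf1r-null saline, and 148 and 205 CPM in Csf1r-null MIA, with log2 fold changes of 0.27 (SE 0.31, edgeR adjusted p 0.995) and 0.05 (SE 0.30, adjusted p 0.999).

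The remaining member pairs at an unadjusted p under 0.05 without the block were Dcc in dividing AP and Robo1 in IP. Dcc in dividing AP had 2.58 and 20.2 CPM in wild-type saline, 17.4 and 41.0 CPM in wild-type MIA, 41.3 and 20.9 CPM in Csf1r-null saline, and 13.1 and 19.6 CPM in Csf1r-null MIA, 66 UMIs in all. The wild-type response minus the Csf1r-null response was 2.28 on the log2 scale with a standard error of 1.06 (edgeR, unadjusted p 0.0478, adjusted p 0.977). It was 1.41 without wild-type saline replicate 1, which held 1 of the UMIs, 1.54 without wild-type MIA replicate 2 and 4.36 without wild-type saline replicate 2. Robo1 in IP had 21.9 and 27.3 CPM in wild-type saline, 23.2 and 23.3 CPM in wild-type MIA, 32.5 and 17.0 CPM in Csf1r-null saline, and 54.5 and 28.6 CPM in Csf1r-null MIA. The log2 difference of genotype after MIA was 0.85 ± 0.38 (SE) (edgeR, unadjusted p 0.0407, adjusted p 1), and 0.37 without Csf1r-null MIA replicate 1.

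Between genotypes, the log2 differences in the class where each gene was highest ran from -0.30 (Unc5b, SE 0.48) to 0.49 (Slit2, SE 0.42) after saline and from -0.11 (Unc5d, SE 0.20) to 0.70 (Unc5b, SE 0.47) after MIA. The differences of the MIA responses ran from -1.003 (Unc5b, SE 0.67) to 0.32 (Unc5d, SE 0.28). The Unc5b difference was -0.24 without Csf1r-null MIA replicate 1, -0.56 without wild-type MIA replicate 1 and -1.53 without wild-type MIA replicate 2. Without both libraries that went against their labels Unc5b was at 1.25 for genotype after MIA and Unc5d at 0.57 for the difference. The Unc5b values use Csf1r-null MIA replicate 1, its highest library in migrating neurons at 13.9 CPM, against 5.32 CPM in replicate 2 of that group. Over the 58 pairs the median log2 fold change was 0.15 for wild-type MIA, -0.03 for Csf1r-null MIA, 0.22 for the difference of responses, 0.30 for genotype after saline and 0.04 for genotype after MIA, and over all genes it was 0.00, 0.00, -0.00, 0.00 and 0.01. Without both libraries that went against their labels the median was 0.24 for wild-type MIA and -0.04 for genotype after MIA. These medians cover only the pairs that passed the filter. Wild-type MIA, the difference of responses and genotype after saline all use the wild-type saline libraries. The medians of the other guidance genes, given below, were also above 0 in these comparisons.

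A list of 38 other genes of these pathways was followed beside the members, made up of other ligands, other receptors and intracellular effectors. By class, the secreted netrin antagonist Draxin, which binds DCC, was highest in SCPN at 132 CPM (114 to 178) and CThPN at 107 CPM (81.9 to 139). The UNC5 ligands Flrt2 and Flrt3 were highest in the Cdh10-high cluster at 163 CPM (104 to 267) and in CPN at 266 CPM (223 to 337). Their ranges overlapped those of the next class, SCPN for Flrt2 and migrating neurons for Flrt3. Flrt1 was highest in IP, at 145 CPM (85.7 to 244), and overlapped migrating neurons, at 119 CPM (64.2 to 203). Ntn1 was near the limit of detection, with its highest mean of 1.60 CPM in AP (0 to 4.69), whereas Ntn4, a laminin-binding netrin relative, had 74.3 CPM there (58.8 to 92.7). Neo1, a DCC relative, was at 110 CPM in the Cdh10-high cluster (82.7 to 146) and 105 CPM in CPN (69.3 to 124). Of the SLIT-ROBO GTPase-activating proteins, Srgap1 was at 202 CPM in SCPN (158 to 256) and 198 CPM in CPN (145 to 266). Srgap3 was at 218 CPM in SCPN (191 to 251) and 213 CPM in CThPN (176 to 257).

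Of these 38 genes, 33 could be tested in at least 1 class, giving 299 pairs, and 0 were called in each comparison. Over the 299 pairs the median log2 fold change was 0.14 for wild-type MIA, 0.01 for Csf1r-null MIA and 0.11 for the difference of responses. It was 0.14 for genotype after saline and 0.01 for genotype after MIA. Without both libraries that went against their labels it was 0.23 for the difference and -0.09 for genotype after MIA. At an unadjusted p under 0.05 there were 23 pairs (7.69%) for wild-type MIA, 14 higher and 9 lower, against 5.85% over all genes. There were 2 (0.669%) for Csf1r-null MIA, 10 (3.34%) for the difference of responses, 20 (6.69%) for genotype after saline and 4 (1.34%) for genotype after MIA, against 1.39%, 2.82%, 5.47% and 1.36%. Flrt1 in dividing IP had 47.7 and 62.1 CPM in wild-type saline and 174 and 119 CPM in wild-type MIA, a log2 fold change of 1.47 ± 0.34 (SE) (edgeR, adjusted p 0.426). Draxin in AP had 12.9 and 19.6 CPM and 33.2 and 63.8 CPM in the same groups, a log2 fold change of 1.501 ± 0.44 (SE) (adjusted p 0.444). In AP wild-type saline replicate 1 also stood apart in its AP markers and in Dlx1 and Dlx2. The value of 63.8 CPM came from wild-type MIA replicate 2 as labelled, and the fold change was 0.96 when that library was left out and 0.98 without both libraries that went against their labels. With the replicate block 3 of the 299 pairs of the list were called for wild-type MIA, against 521 of 91038 pairs (0.572%) over all genes. They were Flrt1 in dividing IP (1.55, edgeR adjusted p 0.0360), Draxin in AP (1.48, adjusted p 0.0267) and Cdc42, a small GTPase of the cytoskeleton, in AP (-0.71, adjusted p 0.0267). The Flrt1 value without the block was 1.18 (edgeR, adjusted p 0.580) when wild-type saline replicate 1, with its Dlx1 and low IP markers in this class, was left out.

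With no filter on low counts 358 pairs of the list could be fitted. For wild-type MIA 5 were called (Draxin in AP, Flrt1 in migrating neurons, and Flrt1, Flrt2 and Nell2 in dividing IP), against 0.146% of pairs over all genes. For genotype after saline 2 were called (Flrt2 and Nell2 in dividing IP), against 0.0987% of pairs over all genes. The 3 pairs in dividing IP for wild-type MIA and both for genotype after saline were also called without wild-type saline replicate 2, when wild-type saline replicate 1 stood for that group alone. Flrt2 and Nell2 were lower in wild-type MIA and in Csf1r-null saline than in wild-type saline. Nell2 had 218 CPM in wild-type saline replicate 1 and 51.7 CPM in replicate 2, and without replicate 1 of that group its log2 fold changes were -0.09 for wild-type MIA and 0.09 for genotype after saline (edgeR, adjusted p 0.979 and 0.985). Flrt2 in this class did not pass the filter on low counts, also not without that library.

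In the other comparisons the smallest p-values belonged to Sos1 and Rgmb for Csf1r-null MIA, to Neo1 and Draxin for the difference, to Neo1 and Abl1 for genotype after saline, and to Ptk2 and Sos1 for genotype after MIA. Sos1, an activator of small GTPases recruited by ROBO, had 47.7 and 59.0 CPM in AP of Csf1r-null saline and 26.1 and 23.1 CPM after MIA, a log2 fold change of -1.12 ± 0.31 (SE) (edgeR, adjusted p 1). Neo1 in MGE-type interneurons had 24.9 and 15.7 CPM in wild-type saline and 47.0 and 47.6 CPM in Csf1r-null saline, a log2 difference of 1.14 ± 0.38 (SE) (edgeR, adjusted p 0.510). Ptk2 in AP had 106 and 101 CPM in wild-type MIA and 68.7 and 71.2 CPM in Csf1r-null MIA, a log2 difference of -0.56 ± 0.21 (SE) (adjusted p 1). None of these pairs passed the test.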

How the data were processed

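Nuclei were profiled by droplet single-nucleus RNA sequencing (10x Genomics 3′ v3.1). The deposited values were raw UMI counts of each gene in each barcode, obtained by the authors with Cell Ranger on the mm10 build and not normalized. Per the file headers, replicate 1 libraries were made with Cell Ranger 3.1.0 (31053 genes) and replicate 2 libraries with 6.0.1 (32285 genes). Whether intronic reads were counted was not given in the sources used here. Genes in both lists (30406) were joined by Ensembl identifier, and gene positions came from GENCODE on GRCm38. The sorted microglia libraries were not used here.

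Doublets were scored with Scrublet and removed at 0.8% per 1000 nuclei, since its automatic threshold gave very unequal shares. Nuclei were clustered (scanpy 1.11.5, 2000 variable genes, 30 components, 20 neighbours, leidenalg 0.10.2, resolution 1) without the members, the other guidance genes and Csf1r. Cluster naming thresholds were set after the clusters were seen, and 6 small or library-bound classes were not tested. Counts were summed per library and class and tested with edgeR 4.0.16 (quasi-likelihood, TMM, filterByExpr) in R 4.3.3, in 1 model of 4 groups per class, with adjustment within class and comparison. The difference of responses is the wild-type minus the Csf1r-null log2 fold change. Standard errors for edgeR were the absolute log2 fold change divided by the square root of the quasi-likelihood F statistic. DESeq2 1.42.0 was an alternative. The tests were tried on simulated counts first.

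Same-numbered libraries deviated together from their group means in all 6 pairs of groups (correlations of 0.531 to 0.755 over 9523 genes), so the numbers were taken to pair the libraries and a model with a replicate block was run. Members and lists were chosen with earlier results of these data known. Each member was described in full in the tested class where its mean was highest. Of the other genes, those with the smallest p-values per comparison were named, at most 2 each. A marker and a gene ranked by likeness to a member are not reported here. P-values rest on a spread within groups, estimated from all 4 groups of 2 libraries together and moderated across genes. Without the block this spread also holds the differences between replicate numbers, and it may be technical.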

Additional observations from a re-analysis of the deposited data

Results flagged for a closer look

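Slit1 in IP was lower in both MIA libraries than in both saline libraries of wild type and higher in both of Csf1r-null. It had 29.9 and 21.4 CPM in wild-type saline and 19.9 and 10.5 CPM in wild-type MIA, and 23.0 and 18.9 CPM in Csf1r-null saline and 24.4 and 28.6 CPM in Csf1r-null MIA. The wild-type response minus the Csf1r-null response was -1.095 on the log2 scale with a standard error of 0.61 (edgeR, unadjusted p 0.0920, adjusted p 0.999), and it did not pass the test. It was -0.63 without both libraries whose microglial genes went against their labels. Across the 58 tested pairs of members and classes this was the only one with such a pattern. How many pairs over all genes had it was not counted, so the pattern cannot be read as particular to these genes. In a group of 2 libraries no library could be tested as standing apart.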

How the results depend on the processing

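Over all genes and classes, 0 pairs were called in each comparison, and other settings called more. The replicate block gave 521 calls for wild-type MIA, 5 for the difference of responses, 282 for genotype after saline and 6 for genotype after MIA. No filter on low counts gave 251, 29, 170 and 36 in that order and 9 for Csf1r-null MIA. DESeq2 gave 51 for wild-type MIA and 32 for genotype after saline. At least 1000 UMIs per nucleus gave 1 for genotype after saline. Without both libraries whose microglial genes went against their labels there were 2 for wild-type MIA and 3 for genotype after MIA. Leaving out 1 library gave 0 to 103 calls for wild-type MIA, 0 to 78 for genotype after saline and 0 to 3 for genotype after MIA, and both 103 and 78 came without wild-type saline replicate 2. Among members these runs gave 0 to 1 call, Dcc in dividing IP, and the replicate block changed no member's call.

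Of the log2 fold changes of MIA over saline in the highest class, 4 changed sign under a setting other than leaving out 1 library, all within 1 standard error of 0. These were -0.17 for Slit2 in wild type and -0.19 for Unc5c in Csf1r-null without both libraries, and -0.10 for Slit1 in wild type and -0.0199 for Dcc in Csf1r-null at a Leiden resolution of 2. Leaving out 1 library, wild-type values ran from -0.19 to 0.49 for Slit2, -0.0410 to 0.955 for Unc5c, -0.0455 to 0.683 for Dcc and -0.24 to 0.24 for Robo1. Csf1r-null values ran from -0.0648 to 0.505 for Unc5a, -0.33 to 0.89 for Unc5b, -0.63 to 0.52 for Unc5c, -0.221 to 0.0758 for Unc5d, -0.29 to 0.44 for Dcc, -0.21 to 0.16 for Robo1, -0.158 to 0.0901 for Robo2 and -0.58 to 0.23 for Slit2. The cause was not tested. The highest class stayed the same for 7 to 10 of the 10 genes, and those that moved were among Dcc, Slit1, Slit2 and Unc5a, whose highest classes had overlapping ranges. With 2 libraries per group and few UMIs in small classes, the members' changes could not be told from the spread between libraries. This held in the fits of all 8 libraries with and without the replicate block. Of the other guidance genes, 3 of 299 pairs were called for wild-type MIA with the block.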
